A study of Rattus norvegicus with 4 samples.

Results

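The Krüppel-like factors are transcription factors named after the fly gene Krüppel. The 10 rat genes considered here were Klf2, Klf3, Klf4, Klf5, Klf6, Klf7, Klf9, Klf10, Klf13 and Klf15. Their probes were found by matching each probe's RefSeq accession to these genes, which gave 14 probes of 9 genes among the 41012 probes of the array. No probe was matched to Klf7. Two-colour arrays measured total RNA of 8 hypothalami, each cut as a block between bregma -2.12 and -4.52 mm from a male Sprague Dawley rat. Every rat was hypothyroid, having drunk 0.025% methimazole (MMI), which blocks thyroid hormone synthesis, for 22 days from 7 weeks of age. On day 21, 4 rats were injected with triiodothyronine (T3, 25 µg per 100 g) and 4 with saline, and all were killed 24 hours later at 10 weeks of age. No euthyroid rats were among the arrays, so that values after T3 are set against hypothyroid rats alone.

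Krüppel-like factors bind GC-rich sites and CACCC boxes in promoters through zinc fingers at their carboxyl end. Their amino-terminal parts differ and recruit either corepressors or coactivators. In rodents Klf9 is a known direct target of the T3-bound thyroid hormone receptor and takes part in neurite growth and neuronal maturation. Several other members, among them Klf4 and Klf6, are also known as regulators of axon growth, and Klf2 and Klf4 as regulators of the vascular endothelium.

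Each of the 4 arrays carried RNA of a T3 rat in one dye and of a saline rat in the other, and T3 RNA was in Cy5 on the odd-numbered arrays (1, 3) and in Cy3 on the even-numbered ones (2, 4). Ratios below are log2 of T3 over saline. The arrays lay on 1 slide and shared 1 scan time. Median spot brightness, the pixel median before correction, was 110 to 281 in the T3 channel and 125.5 to 268.5 in the saline channel. Over the background of 49 to 104, the share of probes called well above it was 49.0% to 66.9% with T3 RNA and 51.0% to 62.4% with saline RNA. Precision is limited by having 4 arrays. All 14 measured markers of hypothalamic nuclei had a kept probe, 13 of them above background in both channels of all 4 arrays. The red blood cell markers Hbb-b1, Hbb and Alas2 had a median ratio of -3.25 on array 2, against 0.34 to 1.35 on arrays 1, 3 and 4. Their summed normalised brightness lay between 5365 and 63816 in T3 rats and between 16076 and 95324 in saline rats. The summed normalised brightness of 4 choroid plexus markers was 15176 in the T3 rat of array 3, against 1109 to 1380 in the other T3 rats and 998 to 2140 in saline rats. In blocks of tissue, fewer cells of a type and less RNA per cell cannot be told apart.

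Of the 14 Klf probes, 12 were kept for testing, and each of these was well above background in both channels on all 4 arrays. The remaining 2 were the dimmer probes of Klf3 (A_44_P461640, above background on 2 arrays in the T3 channel and on 1 in the saline channel) and of Klf5 (A_44_P526866, on 1 and 1). No Klf spot was saturated. By limma 1 of the 12 kept Klf probes, a Klf9 probe, passed an adjusted p of 0.05, against 0.0992% of all 23183 kept probes (0.0949% higher, 0.00431% lower after T3). An unadjusted p under 0.05 was reached by 6 of the 12, the probes of Klf9, Klf10, Klf5 (bright) and Klf15, against 8.12% of all kept probes. These were 4 probes with higher and 2 with lower levels after T3, against 4.16% and 3.96% of all kept probes. The 4 higher probes belong to Klf9 and Klf10 alone. Counted by gene, with the brightest kept probe, 4 of 9 Klf genes had such a p, against 862 of all 9304 named genes.

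**Figure D1:**
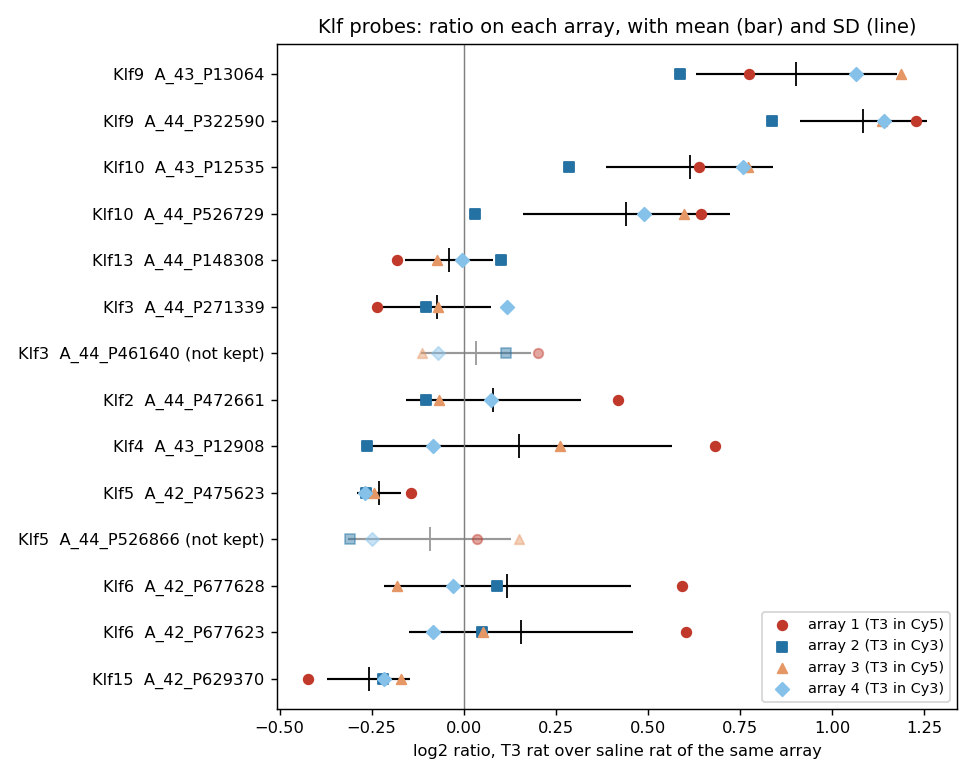
Log2 ratio of T3 over saline on each of the 4 arrays (coloured symbols) for the 14 Klf probes, with the mean (vertical bar) and SD over arrays (horizontal line), and with faded symbols for the 2 probes that were not kept. All symbols of Klf9 and Klf10 lie above 0, those of Klf15 and of the bright Klf5 probe below 0, and array 1 stands to the right for Klf2, Klf4 and Klf6.

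Klf9, the member known as a thyroid hormone target, was higher after T3 in all 4 pairs of rats by both of its probes. Its bright probe A_43_P13064 had a normalised log2 brightness of 12.43, 12.31, 12.59 and 13.07 in the T3 rats of arrays 1 to 4, against 11.65, 11.72, 11.40 and 12.00 in the saline rats. Its dim probe A_44_P322590 had 9.61, 9.15, 9.32 and 9.88 in the T3 rats, against 8.38, 8.32, 8.19 and 8.74 in the saline rats. With either probe the lowest T3 rat lay above the highest saline rat, a separation seen in this direction for 0.981% of all kept probes with 4 values. The smallest T3 excess of both probes was on array 2.

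The ratios of the bright Klf9 probe were 0.77, 0.59, 1.19 and 1.07 on arrays 1 to 4. This is a mean of 0.90 ± 0.27 (SD, n = 4 arrays), or 1.87-fold, with a 95% interval of 0.65 to 1.16. Its limma adjusted p of 0.0516 did not pass, and by p it ranked 24th of all kept probes, next after the 23 that passed. The dim probe gave 1.23, 0.84, 1.13 and 1.14, a mean of 1.09 ± 0.17 or 2.12-fold. It passed, with a limma adjusted p of 0.0129. The difference between the 2 probes, bright minus dim, was -0.18 ± 0.22 over the arrays and thus smaller than its spread. Averaged over both probes, Klf9 was at 0.99 ± 0.20 (limma adjusted p = 0.0240). With T3 in Cy5 the mean ratio was 0.98 by the bright and 1.18 by the dim probe, and with T3 in Cy3 it was 0.83 and 0.99, so that Klf9 was higher in both dye orientations. The 7 oligodendrocyte markers, a cell type in which Klf9 is known to act, had a median ratio of -0.22. Of them 0 passed the threshold (limma, 3 at an unadjusted p under 0.05, against 862 of all 9304 named genes). The summed normalised brightness of these markers was 148723 to 255873 in T3 rats and 227062 to 282599 in saline rats. Their part in the Klf9 value was not tested.

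**Figure D2:**
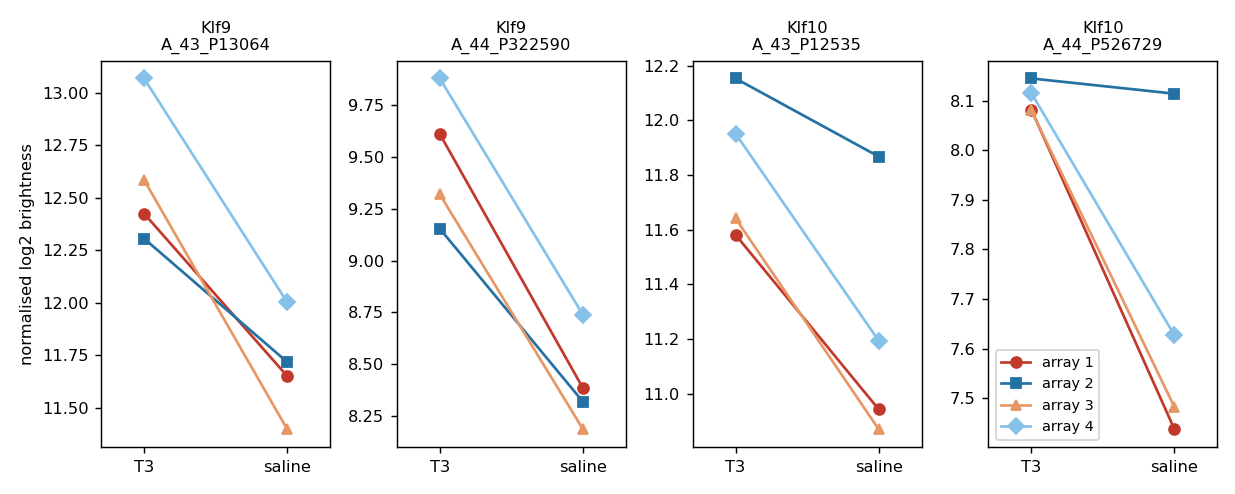
Normalised log2 brightness in each T3 rat (left) and each saline rat (right) for both probes of Klf9 and of Klf10, with a line joining the 2 rats of an array; each panel has its own axis. All lines fall from T3 to saline, and the saline rat of array 2 stands above the other saline rats for Klf10.

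The promoter of Klf9 is shown because Klf9 was the member with a probe past the threshold, with CACCC boxes, the sites that proteins of the family bind, in capitals. It spans 250 bases before to 50 after the annotated start at chr1:230126396-230126695 on the forward strand of GRCr8, from RefSeq.
Klf9 promoter: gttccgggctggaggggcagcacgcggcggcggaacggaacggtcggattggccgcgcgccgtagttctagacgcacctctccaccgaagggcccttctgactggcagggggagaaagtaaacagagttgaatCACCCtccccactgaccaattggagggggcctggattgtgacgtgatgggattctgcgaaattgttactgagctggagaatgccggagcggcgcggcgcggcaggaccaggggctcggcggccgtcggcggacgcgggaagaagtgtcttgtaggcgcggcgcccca
It held 1 CACCC on the given strand, and CACCC on either strand was found in 54.9% of all 33469 rat promoters of this length. It also held 1 TGACG, the core of the cAMP response element, which 21.2% of all promoters held on either strand. The hexamer AGGTCA, the core bound by thyroid hormone receptors, was in none of the 7 Klf promoters given (those of Klf3, Klf4, Klf5, Klf6, Klf7, Klf9 and Klf15) and in 16.2% of all promoters. Only these windows were searched.

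Klf10, an early response gene of transforming growth factor beta signalling, was at a higher level in the T3 rat of every pair by both probes, without passing the test. Its bright probe A_43_P12535 had a normalised log2 brightness of 11.58, 12.15, 11.64 and 11.95 in T3 rats, against 10.94, 11.87, 10.87 and 11.19 in saline rats. The dim probe A_44_P526729 had 8.08, 8.14, 8.08 and 8.12 in T3 rats, against 7.44, 8.11, 7.48 and 7.63 in saline rats. The groups overlapped by both probes, because the saline rat of array 2 was brighter than every other saline rat by either probe and brighter than some T3 rats.

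The ratios of the bright Klf10 probe were 0.64, 0.29, 0.77 and 0.76, a mean of 0.61 ± 0.23 or 1.53-fold (limma adjusted p = 0.0928, 95% interval 0.39 to 0.84). Those of the dim probe were 0.65, 0.03, 0.60 and 0.49, a mean of 0.44 ± 0.28 or 1.36-fold (limma adjusted p = 0.279). Array 2 gave the lowest ratio with either probe. Without it the bright probe was at 0.72 and passed (limma adjusted p = 0.0315), and both Klf9 probes passed as well. Leaving out the array with the lowest ratio raises the mean by construction. Without array 1, 3 or 4 the bright Klf10 probe was at 0.61, 0.56 and 0.57 (limma adjusted p = 0.321, 0.431 and 0.383). Neither Klf9 probe passed there. Over all probes 68 passed without array 2, and 0 without array 1, 3 or 4. The red blood cell markers stand apart on array 2 too, as given above, and their part in the Klf9 and Klf10 values was not tested. Altogether the 4 probes of Klf9 and Klf10 were higher on all 4 arrays, which held for 8.1% of all kept probes with 4 values.

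**Figure D3:**
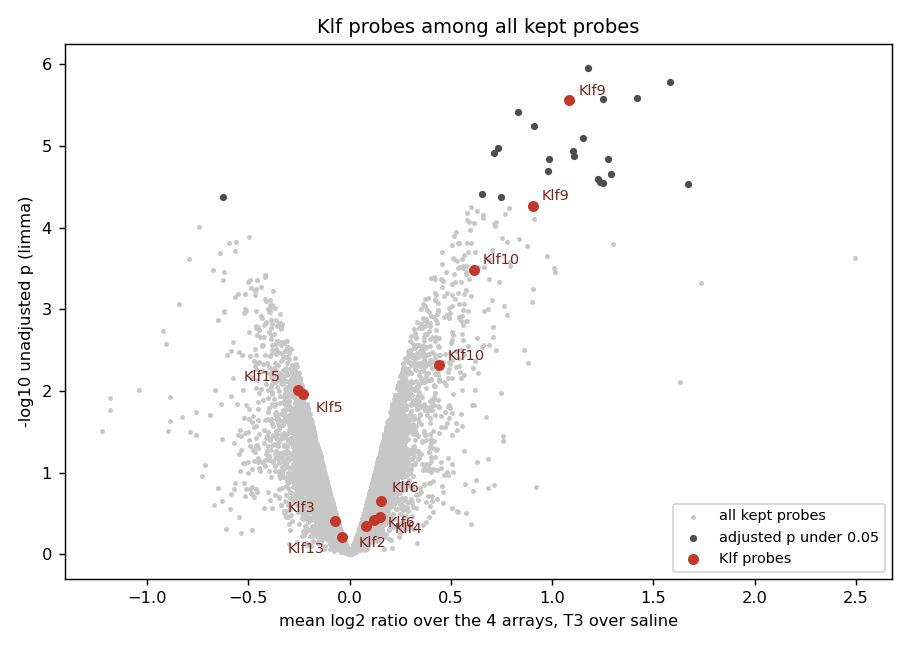
Mean log2 ratio of T3 over saline (horizontal) against -log10 of the unadjusted limma p (vertical) for all kept probes (grey), those past an adjusted p of 0.05 (dark) and the 12 kept Klf probes (red). The dim Klf9 probe is among the dark points, the bright one lies just under them, and the other members lie within the grey cloud.

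Klf13 and Klf3 are mainly repressors, Klf13 through the Sin3a corepressor, as Klf9 and Klf10 also act, and Klf3 through CtBP proteins. The single probe of Klf13 had ratios of -0.18, 0.10, -0.07 and -0.01 on arrays 1 to 4. Its mean was -0.04 ± 0.12, with a 95% interval of -0.22 to 0.14 (limma adjusted p = 0.962). T3 rats had a normalised log2 brightness of 10.31, 10.31, 10.31 and 10.82 and saline rats 10.50, 10.21, 10.39 and 10.83 with this probe, so that the groups overlapped. The bright Klf3 probe was at -0.07 ± 0.15, with an interval of -0.26 to 0.12 (limma adjusted p = 0.912), and its ratios ran from -0.23 on array 1 to 0.12 on array 4. Neither interval reached the mean ratio of either Klf9 probe. The dim Klf3 probe was at 0.03 ± 0.15 and was not tested.

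Klf2, Klf4 and Klf6 are inducible members, the first 2 with known roles in endothelial cells and Klf6 as an injury-response gene that favours axon growth. None passed, and each had its highest ratio on array 1. For Klf4 the ratios were 0.68, -0.26, 0.26 and -0.08, a mean of 0.15 ± 0.42 (limma adjusted p = 0.895). The mean of Klf4 was 0.47 with T3 in Cy5 and -0.17 with T3 in Cy3, so that its sign followed the dye orientation in these ratios. In the authors' deposited table Klf4 was at 0.45, -0.26, -0.09 and 0.40 in the columns of arrays 1 to 4. There its sign did not follow the dye orientation. For Klf2 the ratios were 0.42, -0.10, -0.07 and 0.07, a mean of 0.08 ± 0.24 (limma adjusted p = 0.928). The bright Klf6 probe gave 0.59, 0.09, -0.18 and -0.03, a mean of 0.12 ± 0.34 (limma adjusted p = 0.907), and its dim probe 0.60, 0.05, 0.05 and -0.08, a mean of 0.16 ± 0.30 (limma adjusted p = 0.840). The 2 Klf6 probes thus differed by 0.01 on array 1 and by at most 0.23 on any array. Without array 1 the means of Klf2, Klf4 and the bright Klf6 probe were -0.03, -0.03 and -0.04, and their directions rest on that array. With the values of the authors' deposited table the means of Klf2 (-0.06) and of the bright Klf6 probe (-0.17) were below 0 as well, and that of Klf13 was above it (0.11). In the column of array 1 of that table Klf2 was at -0.0086, the bright Klf6 probe at -0.17 and the dim one at -0.096. The high of Klf2 and Klf6 on array 1 was thus absent there.

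On the same array the immediate early genes, which are transcribed within minutes of neuronal activity, had a median ratio of 0.37 over 11 measured of 15 listed. The median was 0.06, 0.18 and 0.10 on arrays 2 to 4, and 0.02 over all named genes on array 1. Nr4a1, a nuclear receptor of that list, was at 0.82 on array 1 and at 0.05 to 0.26 on the others (mean 0.33 ± 0.34, limma adjusted p = 0.554). Not every measured member was above 0 on array 1, and Gadd45b was highest on array 3 (0.54, against 0.44 on array 1). Arc, which acts at synapses, passed (1.42 ± 0.28, limma adjusted p = 0.0129), while Gadd45b (0.36 ± 0.16, limma adjusted p = 0.232) and Ier2 (0.24 ± 0.20, limma adjusted p = 0.554) did not. The endothelial markers had a median of 0.04 on array 1 and of -0.06 to 0.03 on arrays 2 to 4, with 0 of 8 measured markers past the threshold. By limma 3 had an unadjusted p under 0.05, against 862 of all 9304 named genes. These 3 were Cldn5 at -0.37, Tie1 at 0.34 and Kdr at 0.32. The summed normalised brightness of the 8 markers was 20572 to 24407 in T3 rats and 20249 to 21976 in saline rats. Of the 10 listed, Pecam1 was too dim to be kept and Vwf had no matched probe.

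**Figure D4:**
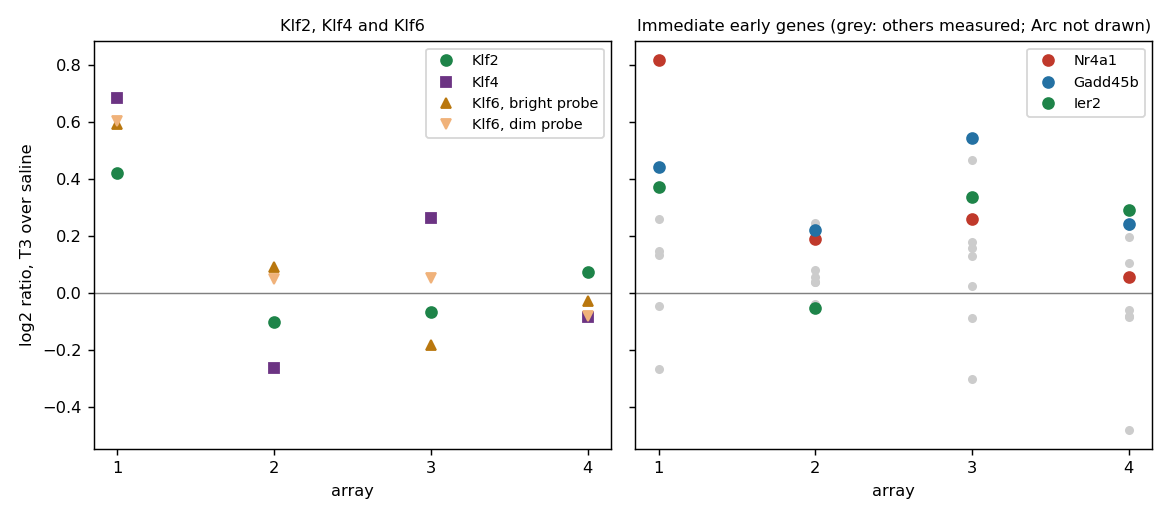
Log2 ratio of T3 over saline on each array for Klf2, Klf4 and both Klf6 probes (left) and for the measured immediate early genes other than Arc (right), with Nr4a1, Gadd45b and Ier2 in colour. The 4 Klf probes lie at 0.42 to 0.68 on array 1 and between -0.26 and 0.26 on the others.

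Klf5, known for driving proliferation in epithelia and smooth muscle, was at a lower level in the T3 rat of every pair by its bright probe, without passing. Its ratios were -0.14, -0.26, -0.24 and -0.27, a mean of -0.23 ± 0.06 (limma adjusted p = 0.379, 95% interval -0.39 to -0.07). The normalised log2 brightness was 9.74, 10.59, 10.29 and 9.92 in T3 rats and 9.88, 10.86, 10.53 and 10.19 in saline rats, and the groups overlapped. In the authors' deposited table the direction of this probe turned, with a mean of 0.13 over log ratios of -0.03, -0.32, 0.42 and 0.46 in the columns of arrays 1 to 4. The dim Klf5 probe had ratios of 0.04, -0.31, 0.15 and -0.25 and was not tested.

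Klf15, a glucocorticoid-induced regulator of amino acid and lipid metabolism, was also at a lower level in the T3 rat of every pair, without passing. Its ratios were -0.42, -0.22, -0.17 and -0.22, a mean of -0.26 ± 0.11 or 0.837-fold (limma adjusted p = 0.361, 95% interval -0.43 to -0.08). T3 rats had a normalised log2 brightness of 11.84, 11.79, 12.03 and 12.23 and saline rats 12.26, 12.01, 12.20 and 12.45, and the groups overlapped. Across the arrays, 2 kept Klf probes, those of Klf5 and Klf15, were lower on all 4, as were 8.07% of all kept probes with 4 values. The summed normalised brightness of 7 astrocyte markers, all measured, was 116445 to 135099 in T3 rats and 134917 to 148508 in saline rats. Their median ratio was -0.15, with 5 of 7 lower in the mean and 0 past the threshold. By limma 2 had an unadjusted p under 0.05, against 862 of all 9304 named genes. These 2 went in opposite directions, Gja1 at -0.62 and Slc1a2 at 0.34. The part of the astrocyte markers in the Klf15 value was not tested.

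The Klf15 promoter is shown for comparison with that of Klf9, as the member with the lowest mean ratio, with CACCC on either strand (GGGTG on the strand printed) in capitals. It lies at chr4:124522765-124523064 on the forward strand of GRCr8, from RefSeq.
Klf15 promoter: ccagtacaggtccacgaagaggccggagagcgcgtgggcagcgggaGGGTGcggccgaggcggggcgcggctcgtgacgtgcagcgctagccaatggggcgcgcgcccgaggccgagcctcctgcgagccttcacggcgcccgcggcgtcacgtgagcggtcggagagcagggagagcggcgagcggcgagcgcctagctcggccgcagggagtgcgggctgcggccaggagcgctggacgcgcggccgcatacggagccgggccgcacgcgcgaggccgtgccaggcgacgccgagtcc
It held 1 CACCC, on the reverse strand, and 2 TGACG, 1 on each strand. It was 77.3% G and C with 51 CG pairs, and that of Klf9 was 65.3% with 32, against medians of 51.7% and 7 over all promoters. GGGCGG, the GC box, was in neither of them, in 3 of the 7 Klf promoters and in 33.1% of all promoters on either strand.

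By the brightest kept probe of each gene, 5 of 9 measured Klf genes had a higher mean after T3 and 4 a lower one, with a median of 0.08, against 4826 of 9304 named genes with a higher mean and a median of 0.004. The mean ratios ran from -0.26 for Klf15 to 0.90 for Klf9. In that order the neighbours Klf15 and Klf5 differed by less than their SD over arrays, as did Klf3, Klf13, Klf2, Klf6 and Klf4 from one to the next by the larger SD. Klf10 and Klf9 followed, and their means of 0.61 and 0.90 differed by slightly more than either SD.

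Further members of the Sp/KLF family were tested for 5 of 16 listed genes, and 0 passed. By limma 2 had an unadjusted p under 0.05, against 862 of all 9304 named genes. Klf16 was at -0.35 ± 0.22 (limma adjusted p = 0.328) and Klf14 at -0.35 ± 0.24 (limma adjusted p = 0.367). Both were lower on all 4 arrays, as were 8.07% of all kept probes with 4 values. Sp1, the ubiquitous GC-box factor, was at -0.18 ± 0.43 by its brightest probe, and Klf1, the erythroid member, at -0.05 ± 0.12. Klf11, which is close to Klf10, was too dim to be kept.

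Cofactors and degradation enzymes of these factors were measured for 11 of 15 listed genes, with a median of -0.06 and 0 past the threshold. Their means were 3 higher and 8 lower, against 4826 of all 9304 named genes with a higher mean. An unadjusted limma p under 0.05 was reached by 0, against 862 of all 9304 named genes. The corepressor Sin3b was at -0.18 ± 0.22, the acetyltransferase Kat2b at -0.11 ± 0.18, the SUMO ligase Pias1 at -0.10 ± 0.11 and the deacetylase Hdac1 at 0.08 ± 0.07. In the transforming growth factor beta pathway, of which Klf10 is a target, 8 of 13 listed genes were measured and 0 passed. An unadjusted limma p under 0.05 was reached by 1 of the 8, against 862 of all 9304 named genes. The ligand gene Tgfb2 was at -0.30 ± 0.16 (limma adjusted p = 0.342) and Tgfb3 at 0.08 ± 0.04. The nuclear corepressor Tgif1 was at -0.14 ± 0.10 and Id1, a target of the pathway, at 0.08 ± 0.11.

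Among 7 measured of 13 listed nuclear receptors and coregulators, Hr, a corepressor of the thyroid hormone receptor, passed (1.18 ± 0.15, limma adjusted p = 0.0129). Of all 9304 named genes 15 passed. The receptor gene Thra was at -0.10 ± 0.28, Rxrb at 0.25 ± 0.35 and Rxrg at -0.39 ± 0.21 (limma adjusted p = 0.253). A list of 12 brain genes that thyroid hormone is known to raise had 10 measured members. All 10 had a higher mean, against 4826 of all 9304 named genes. The list was chosen with earlier results of these data known, so that this count is no independent test. The median of the list was 0.15, with 1 past the threshold (Hr). Dio3, which inactivates T3, was at 2.49 ± 1.16 (limma adjusted p = 0.0835). Its ratios were 3.43 and 3.56 with T3 in Cy5 (arrays 1 and 3) and 1.59 and 1.40 with T3 in Cy3 (arrays 2 and 4). Abcd2, a peroxisomal transporter, was at 0.42 ± 0.12 (limma adjusted p = 0.125).

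Klf9 and Klf15 are also known as glucocorticoid-induced genes. Of 12 listed glucocorticoid-responsive genes 11 were measured, with 4 higher and 7 lower means, a median of -0.04 and 0 past the threshold. By limma 3 had an unadjusted p under 0.05, against 862 of all 9304 named genes. Fkbp5 and Tsc22d3, named here after their values were seen as genes known for their response to glucocorticoids, were at 0.02 ± 0.05 and -0.01 ± 0.02. They had the largest unadjusted limma p of the measured list (0.804 and 0.934). Mt2A, a metallothionein, was at -0.50 ± 0.06 (limma adjusted p = 0.0689) and Sgk1, a kinase, at -0.27 ± 0.27. Errfi1, an inhibitor of epidermal growth factor receptors, was at 0.19 ± 0.03, and Cdkn1a, a cell cycle inhibitor, at 0.20 ± 0.23. The part of glucocorticoids in the Klf9 and Klf15 values was not tested.

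Genes reported elsewhere as regulated by Krüppel-like factors were measured for 14 of 15 listed, with 7 higher and 7 lower means. Their median was 0.03, with 0 past the threshold (limma, 4 at an unadjusted p under 0.05, against 862 of all 9304 named genes). Prodh, the proline dehydrogenase known as a Klf15 target in mouse, had ratios of 0.63, 0.37, 0.61 and 0.52, a mean of 0.53 ± 0.12 (limma adjusted p = 0.0689). Dbp, a clock output factor, was at 0.33 ± 0.13 (limma adjusted p = 0.249). Slc2a4, a glucose transporter, was at 0.24 ± 0.14.

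The genes whose 4 ratios lay closest to those of the bright Klf9 probe, by root mean square difference among 9053 other genes, were Defa24 (0.163), Wfdc1 (0.176), Acsl6 (0.178), Hcn2 (0.203) and Slc25a33 (0.216). Defa24, a defensin, was at 0.74, 0.90, 1.28 and 1.02 on arrays 1 to 4. Hcn2, a pacemaker channel, was at 0.92, 0.47, 0.95 and 0.80, and had its lowest ratio on array 2, as Klf9 did. Closest to the bright Klf10 probe were Fcmr (0.0745), Egfl8 (0.0966), Igfbp4 (0.102), Megf6 (0.119) and Stat5a (0.130). Stat5a, a signal transducer of cytokine and growth hormone receptors, was at 0.82, 0.42, 0.73 and 0.88, and Igfbp4, an insulin-like growth factor binding protein, at 0.65, 0.32, 0.58 and 0.70. All 5 had their lowest ratio on array 2, as the bright Klf10 probe did. These genes and Hcn2 were chosen by closeness in the same 4 ratios, so that a shared low on array 2 is no separate observation. With 4 arrays this likeness is a description of size and array pattern.

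The calls on Klf9 depended on the processing more than its ratio did. Over 15 alternatives the value of Klf9 ranged from 0.81 to 1.49, and 7 of them put it past the threshold. Over 13 alternatives its dim probe ranged from 0.94 to 1.27 and passed in 6. The value of Klf10 ranged from 0.44 to 0.95 over 15 alternatives and passed in 1, that without array 2. In the authors' deposited table the bright Klf9 probe had log ratios of 1.25, 1.54, 1.59 and 1.57 in the columns of arrays 1 to 4. The dim Klf9 probe had 0.98, 1.08, 0.31 and 1.38 there, a mean of 0.94 (limma adjusted p = 0.359). It was lower than the bright one in each column, whereas its mean was the higher in the scanner ratios. The bright Klf10 probe had 0.83, 0.80, 0.36 and 1.81, and the dim one 0.85, 0.49, 0.58 and 0.63.

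**Figure D5:**
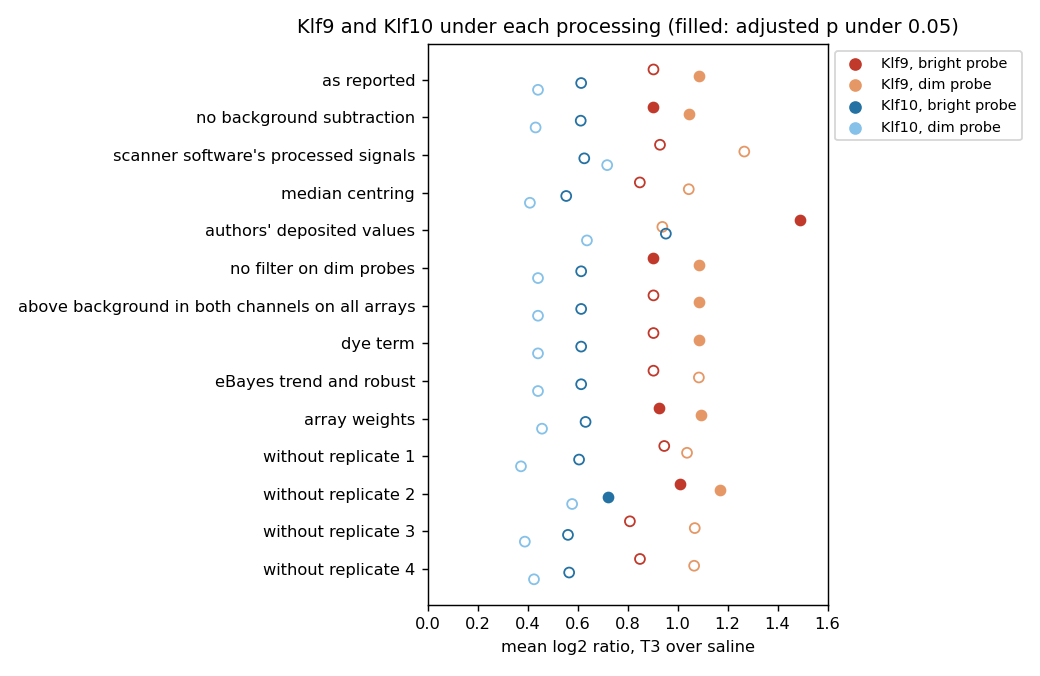
Mean log2 ratio of T3 over saline for both probes of Klf9 and of Klf10 as reported and under 13 alternative settings, filled where the limma adjusted p was under 0.05. Every symbol lies above 0, the Klf9 probes at 0.81 to 1.49 and the Klf10 probes at 0.37 to 0.95.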

How the data were processed

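The deposited scanner files hold median spot and background brightness as intensity values, not normalized, and processed intensity values with a log10 ratio of Cy5 over Cy3, made with Agilent Feature Extraction 10.7.3.1 on a design annotated on rn4, per the file headers. The authors' deposited table holds log ratios read here as log2 of T3 over saline, and the submitters' processing notes name limma 3.18.9 for them; its centring and normalization are not given in the sources used here. Spike-in controls set its scale and direction (slopes of 0.998 to 1.06 and r of 0.965 to 0.994 against the scanner ratios). Its column medians were 0.0026, -0.0024, 0.0021 and 0.0030 for arrays 1 to 4. Over kept probes its columns correlated with the scanner ratios of the same array at r of 0.431, 0.426, 0.185 and 0.280. The scanner ratios of array 3 correlated more with its column of array 1 (0.264). Those of array 4 correlated more with its column of array 2 (0.307). Its columns of arrays 3 and 4 correlated at -0.51. For gene probes its single columns are thus weak matches of single arrays.

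Brightness was corrected with normexp (offset 50) and arrays were normalized by loess (limma 3.58.1, R 4.3.3), leaving out control spots and outlier spots and averaging spots of a probe. Ratios of arrays with T3 in Cy3 were turned. A probe was kept when well above background on 3 of 4 arrays in either treatment (23183 probes, 9304 named genes). Brightness per rat came from the same values after quantile normalization of the average brightness between arrays, which gives every array the same distribution of it. Differences were tested with limma (lmFit, eBayes, 2-sided, Benjamini-Hochberg over all kept probes, threshold 0.05), tested on simulated data first. Names came from RefSeq accessions in a GRCr8 gene table (16964 probes with 1 symbol, 24048 with none), and a gene stands by its brightest kept probe. Genes named beside the members are up to 4 of each list with the smallest p, and the 5 nearest to Klf9 and to Klf10; any other is marked, and 1 gene under this rule is not reported here. Members and lists were chosen with earlier results of these data known. Alternatives changed background, normalization, source of values, filter, dye term, variance model, array weights, replicates, probe and threshold.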

Additional observations from a re-analysis of the deposited data

Results flagged for a closer look

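Of 73 sets of 4 array values examined (the 14 Klf probes, the genes named beside them and the list medians), 1 had an array far from the other 3, where chance gives about 1 in 20. Tgif1 was at -0.30 on array 2, against -0.10 to -0.09 on arrays 1, 3 and 4 (gap over range 0.914). None of the 14 Klf probes was set apart by this measure, although Klf2 and Klf6 were highest on array 1.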

How the results depend on the processing

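The limma count of 23 probes past the threshold was 10 with the authors' deposited values, 67 without the filter on dim probes, 15 with a dye term and 90 at a threshold of 0.1. It was 0 with the scanner software's processed signals, with median centring and with eBayes trend and robust (1946, 132 and 1159 at an unadjusted p under 0.05). Leaving out 1 replicate gave 0 to 68, with 0 without replicate 1, 3 or 4 (1402, 1382 and 1577 at an unadjusted p under 0.05) and 68 without replicate 2. The cause was not tested. Klf9 passed at 0.90 without background subtraction (limma adjusted p = 0.0471), at 1.49 with the deposited values, at 0.90 without the filter, at 0.93 with array weights, at 1.09 by its dim probe and at 0.99 averaged over both. Its values without 1 replicate were 0.81 to 1.01, and those of Klf10 0.56 to 0.72, with both genes past the threshold without replicate 2. The dim Klf9 probe lost its call with the processed signals, median centring, the deposited values, eBayes trend and robust, and without replicate 1, 3 or 4, at ratios of 0.94 to 1.27. With the deposited values the direction turned for Klf13 (0.11), Klf2 (-0.055), Klf5 (0.13) and the bright Klf6 probe (-0.17). Without 1 replicate the values were -0.087 to 0.0072 for Klf13, -0.032 to 0.14 for Klf2, -0.029 to 0.29 for Klf4 and -0.040 to 0.22 for the bright Klf6 probe, each turning without replicate 1. The reported test is itself paired, since each array's ratio sets 1 T3 rat against 1 saline rat, and an unpaired fit was not run. The dimmer probes of Klf3 and Klf5 were at or near background, which limits what they show.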
